A study of Mus musculus with 2 samples.

Results

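Deoxynucleotides for DNA are made in 2 ways, and the 10 genes described here encode the enzymes that run both of them or limit their products. They are the ribonucleotide reductase subunit genes Rrm1, Rrm2 and Rrm2b, the deoxynucleoside kinase genes Dck, Dguok, Tk1 and Tk2, the deaminase genes Cda and Dctd, and the dNTP hydrolase gene Samhd1. They were chosen by symbol, each matched 1 of the 55468 entries of the deposited table, and all 10 were at 1 FPKM (fragments per kilobase of transcript, scaled to sequencing depth) or more in both libraries, among 12193 genes that reached 1 FPKM in at least 1. The libraries came from gemcitabine-resistant KPC2 cells, a mouse pancreatic cancer line cultured in the long term under gemcitabine at 260 ng/mL, and from wild type KPC2 cells that received no drug. The labels give no genotype. Both were grown in DMEM with serum, GlutaMAX and antibiotics, and there was 1 library of each, so every difference below describes these 2 libraries and no test between the conditions was possible. No label says how the resistant cells were selected or whether they are 1 clone, and drug in the medium cannot be told apart from a lasting state of the cells.

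Ribonucleotide reductase removes the 2′ hydroxyl of ribonucleoside diphosphates. Its large subunit, RRM1, holds the catalytic and allosteric sites, and its small subunit, RRM2 in dividing cells or the p53-inducible RRM2B in resting or stressed cells, supplies the tyrosyl radical. The salvage kinases phosphorylate deoxynucleosides, DCK and TK1 in the cytosol and TK2 and DGUOK in mitochondria. Gemcitabine is a deoxycytidine analogue: DCK, and in mitochondria TK2, add its first phosphate, CDA deaminates it, DCTD deaminates its monophosphate, and its diphosphate inactivates ribonucleotide reductase.

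Resistant cells held far more Rrm1 transcript and more Rrm2b transcript than wild type cells, while Rrm2, Dck, Tk2, Dctd and Samhd1 were lower and Tk1, Dguok and Cda were close to the wild type level. On the log2(FPKM + 1) scale 2 of the 10 genes were at least 2-fold higher, beside 7.90% of all measured genes, and 0 were at least 2-fold lower, beside 8.37%. Without a pseudocount Tk2, at an FPKM ratio of 0.495, would count as 2-fold lower. The median log2 ratio of the 10 was -0.25, against 0.02 over all measured genes, whose quartiles were -0.46 and 0.44. The 5 lower genes were all below -0.5 on this scale, as were 23.2% of measured genes, and a gene at that level was therefore no rarity in these libraries.

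**Figure D1:**
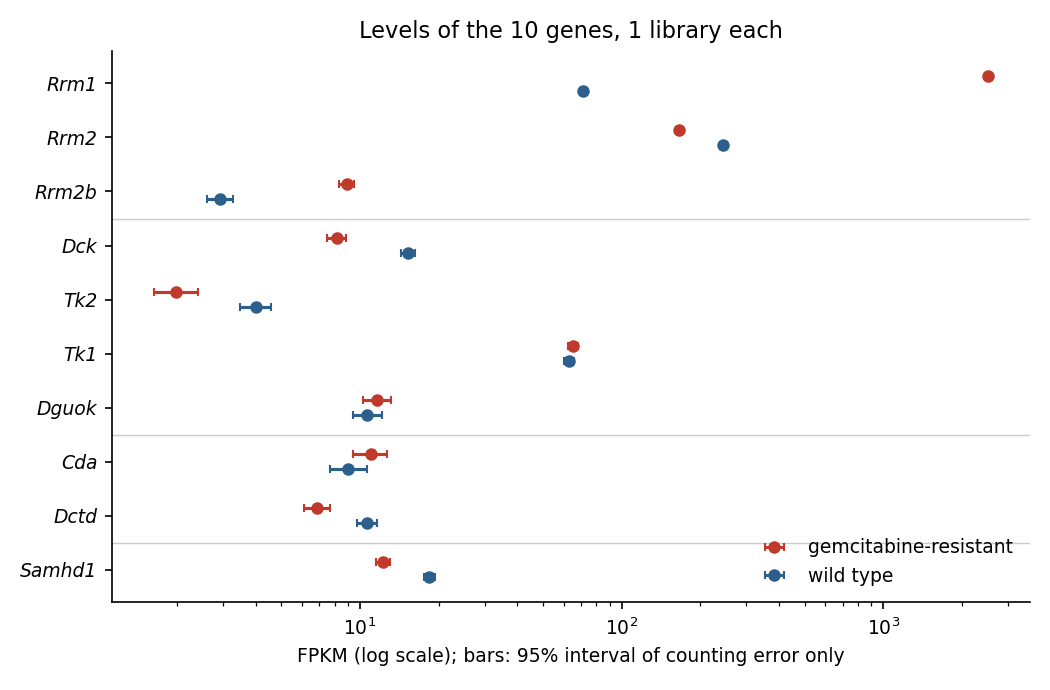
FPKM (log axis) of the 10 genes in the gemcitabine-resistant (red) and the wild type (blue) library, 1 library each, with lines between the role groups. Bars are 95% Poisson intervals of counting error only; the intervals of the libraries overlap for Tk1, Dguok and Cda, and Rrm1 stands at 2501 against 71.5 FPKM.

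**Figure D2:**
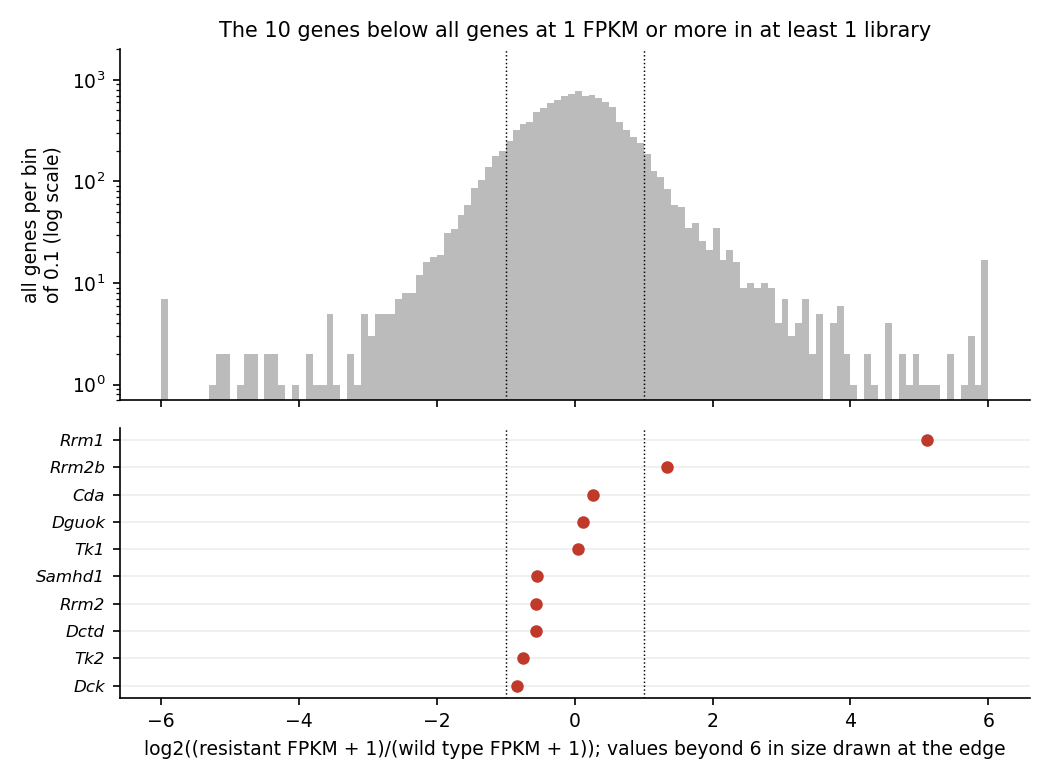
The upper panel counts all 12193 measured genes by log2((resistant FPKM + 1)/(wild type FPKM + 1)) on a log axis, and the lower panel places the 10 genes on the same horizontal scale, with dotted lines at 2-fold. Rrm1 at 5.11 and Rrm2b at 1.34 lie to the right of the upper line, and Dck at -0.83 is the lowest of the 10.

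The stretches before the start sites of Rrm1, of Rrm2, and of Stim1 and Rhog, which lie beside Rrm1 and resemble it in the libraries, are shown because these genes carry the largest difference below or its closest contrast. Each runs 5′ to 3′ on the gene's strand over the 250 bases before the start in RefSeq (GRCm38.p6). Capitals mark CCAAT (the CCAAT box), GGGCGG (the GC box, bound by SP1) and AANATGGCG (the core bound by YY1), each searched on both strands; the CCAAT box and the YY1 core overlap in Rrm1.
Rrm1, chr7:102441445-102441694, plus strand: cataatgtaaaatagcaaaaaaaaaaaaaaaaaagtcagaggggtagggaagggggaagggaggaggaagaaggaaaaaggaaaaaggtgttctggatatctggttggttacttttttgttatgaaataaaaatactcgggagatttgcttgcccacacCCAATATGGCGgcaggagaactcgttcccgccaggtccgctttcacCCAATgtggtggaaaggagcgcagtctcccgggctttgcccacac
Rrm2, chr12:24708004-24708253, plus strand: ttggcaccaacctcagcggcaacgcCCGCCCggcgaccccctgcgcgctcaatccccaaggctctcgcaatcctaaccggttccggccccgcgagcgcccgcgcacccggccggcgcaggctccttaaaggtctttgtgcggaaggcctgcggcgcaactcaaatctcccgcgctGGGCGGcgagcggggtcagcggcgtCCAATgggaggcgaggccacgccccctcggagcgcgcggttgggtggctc
Stim1, chr7:102267569-102267818, plus strand: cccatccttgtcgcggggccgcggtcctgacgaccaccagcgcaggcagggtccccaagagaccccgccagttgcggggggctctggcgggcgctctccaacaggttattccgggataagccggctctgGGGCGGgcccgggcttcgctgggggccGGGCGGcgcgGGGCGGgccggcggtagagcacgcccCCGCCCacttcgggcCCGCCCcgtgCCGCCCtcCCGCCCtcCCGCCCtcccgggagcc
Rhog, chr7:102250119-102250368, minus strand: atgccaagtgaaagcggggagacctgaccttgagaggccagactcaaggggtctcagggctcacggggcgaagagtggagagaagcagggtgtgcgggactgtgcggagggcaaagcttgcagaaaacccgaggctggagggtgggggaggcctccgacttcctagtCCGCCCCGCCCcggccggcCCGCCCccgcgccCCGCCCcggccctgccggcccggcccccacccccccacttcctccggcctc
The Rrm1 window held CCAAT at 91 and 45 bases before the start and the YY1 core at 89 bases, with no GC box. The Rrm2 window held CCAAT at 50 bases and 2 GC boxes. The Stim1 and Rhog windows held 8 and 4 GC boxes and no CCAAT, so none of the motifs searched was in both Rrm1 and either neighbour. Of 32851 such windows in RefSeq, 33.8% hold CCAAT, 32.7% a GC box and 1.12% the YY1 core. For 9 of the 10 genes a window was at hand; of these, 3 held CCAAT, 7 a GC box, 1 the YY1 core, and 0 held the E2F core TTTNNCGC (4.28% of all windows) or TATAAA (12.4%). A match is a run of letters only.

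Rrm1 (ENSMUSG00000030978; chromosome 7, 102441695 to 102469771 of GRCm38, plus strand) had 2501 FPKM in resistant cells and 71.5 FPKM in wild type cells. Taken over its only coding transcript of 3997 bases, these values rest on about 222943 and 6577 fragments. The FPKM ratio was 35, and counting error alone spans 34.1 to 35.9 (95%, exact). Such intervals leave out every difference between cultures or library preparations, and in bulk RNA a change in the make-up of the cells cannot be told apart from a change in transcript per cell. By level, Rrm1 ranked 12 among protein-coding genes in resistant cells and 998 in wild type cells, and it made up 0.209% of the summed FPKM in resistant cells against 0.00725% in wild type. Only 25 measured genes had a higher log2 ratio, of which 20 were listed at 0 in wild type cells and 5 were protein-coding. The authors' own log2 fold change for Rrm1 was 5.13, from 1 library on each side.

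The small subunit genes stood on both sides of the wild type level. Rrm2 (chromosome 12, 24708241 to 24714146, plus strand) had 166 FPKM in resistant cells and 244 FPKM in wild type cells, a ratio of 0.679 with a counting interval of 0.660 to 0.699. Rrm2b (chromosome 15, 37923952 to 37961318, minus strand) had 8.91 FPKM in resistant cells and 2.92 FPKM in wild type cells, a ratio of 3.05 (2.68 to 3.48). Even so Rrm2 remained the main small subunit transcript: per length, Rrm2b came to 5.37% of Rrm2 in resistant cells and 1.19% in wild type cells. In the authors' deposited table Rrm2b has a p-value of 0.0324 and a q-value of 0.959, and is not called. With a pseudocount of 5 the log2 ratio of Rrm2b was 0.81, below the 2-fold line.

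The balance between large and small subunit transcripts therefore stood the other way round in the 2 libraries. Per length there were 14.3 Rrm1 transcripts for each Rrm2 or Rrm2b transcript in resistant cells, against 0.289 in wild type cells, a 49.5-fold difference. With Rrm2 alone as the small subunit the values were 15.1 in resistant cells and 0.293 in wild type cells. The most abundant of the 10 genes was Rrm1 in resistant cells and Rrm2 in wild type cells. The authors' own log2 fold changes were 5.13 for Rrm1, -0.558 for Rrm2 and 1.61 for Rrm2b.

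Among the kinases, both that phosphorylate deoxycytidine, Dck and Tk2, were lower in resistant cells. Tk1, for thymidine in the cytosol, and Dguok, for purine deoxynucleosides in mitochondria, were near the wild type level. Dck (chromosome 5, 88764996 to 88783281, plus strand) stood at 8.18 FPKM in resistant cells and 15.3 FPKM in wild type cells, a ratio of 0.534 (0.481 to 0.592). Tk2 (chromosome 8, 104226685 to 104248558, minus strand), the mitochondrial kinase for thymidine and deoxycytidine, stood at 1.99 FPKM in resistant cells and 4.01 FPKM in wild type cells, a ratio of 0.495 (0.390 to 0.631). Tk2 was the least abundant of the 10 in resistant cells, resting on about 104 fragments there and 216 in wild type cells, and its interval is the widest of the lower genes. On the log2(FPKM + 1) scale, which understates low genes, Dck was at -0.83 and Tk2 at -0.75, placing them at the 12.2 and 14.4 percentile of measured genes.

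Tk1 (chromosome 11, 117815526 to 117826092, minus strand), the thymidine kinase of S phase, stood at 65.2 FPKM in resistant cells and 62.9 FPKM in wild type cells, a ratio of 1.04 (0.974 to 1.11). Dguok (chromosome 6, 83480217 to 83506969, minus strand), the mitochondrial deoxyguanosine kinase, stood at 11.7 FPKM in resistant cells and 10.7 FPKM in wild type cells, a ratio of 1.09 (0.909 to 1.3). Both intervals include a ratio of 1, and they limit counting error to differences of at most 1.3-fold. The sign of the Tk1 log2 ratio, 0.05, turned to -0.04 when the resistant library was rescaled to the wild type's upper quartile. Tk1 gave 74.9% of the summed kinase FPKM in resistant cells and 67.7% in wild type cells. Per length, Dck came to 12.5% of Tk1 in resistant cells and 24.4% in wild type cells, and Tk2 to 17.0% of Dguok in resistant cells and 37.6% in wild type cells.

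The deaminases parted as well. Cda (chromosome 4, 138338424 to 138367992, minus strand) stood at 11 FPKM in resistant cells and 9.04 FPKM in wild type cells, a ratio of 1.22 whose counting interval of 0.969 to 1.52 includes 1. Its coding transcript is short, 846 bases, and the values rest on about 175 and 149 fragments in resistant and wild type cells. Dctd (chromosome 8, 48099092 to 48153233, plus strand), which turns dCMP into dUMP on the way to thymidylate, stood at 6.85 FPKM in resistant cells and 10.6 FPKM in wild type cells, a ratio of 0.645 (0.556 to 0.744). Set against each other per length, Dck over Cda was 0.743 in resistant cells and 1.70 in wild type cells. So the activating kinase was the less abundant transcript of that pair in resistant cells and the more abundant in wild type cells. Dck over Dctd, by contrast, was 1.19 in resistant cells and 1.44 in wild type cells.

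Samhd1 (chromosome 2, 157097533 to 157135265, minus strand) encodes the hydrolase that splits dNTPs into deoxynucleosides and triphosphate. It stood at 12.3 FPKM in resistant cells and 18.4 FPKM in wild type cells, a ratio of 0.667 (0.617 to 0.720). Its ratio thus lies close to those of Rrm2 and Dctd. Counting intervals lay above a ratio of 1 for Rrm1 and Rrm2b, and below it for Rrm2, Dck, Tk2, Dctd and Samhd1. For Tk1, Dguok and Cda they included it. They were not made for all measured genes, so no share over all genes can be set beside this.

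In order of level, resistant cells had Rrm1, Rrm2 and Tk1 first, then Samhd1, Dguok, Cda, Rrm2b, Dck, Dctd and Tk2. Within this order the counting intervals of Samhd1, Dguok and Cda overlapped, as did those of Cda and Rrm2b, of Rrm2b and Dck, and of Dck and Dctd. In wild type cells the order was Rrm2, Rrm1, Tk1, Samhd1, Dck, Dguok, Dctd, Cda, Tk2 and Rrm2b, with overlapping intervals among Dguok, Dctd and Cda. Dck was number 8 in resistant cells and number 5 in wild type cells, and Rrm2b was number 7 in resistant cells and number 10 in wild type cells.

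Some of these entries share their locus with others. Inside the Rrm1 gene lies Gm45399, an unclassified entry on the same strand that overlaps no annotated Rrm1 exon (102458245 to 102459260). It stood at 6.55 FPKM in resistant cells and 0.342 FPKM in wild type cells, 19.2-fold apart, with a counting interval of 9.05 to 48.6. Inside Rrm2b lies the processed pseudogene Gm3362, again outside the annotated exons and on the same strand, at 22.9 FPKM in resistant cells and 4.28 FPKM in wild type cells. The sources used here do not say how fragments were split between these entries and their host genes. On the strand opposite Tk1, Afmid overlaps 169 bases of its coding transcript and stood at 10.0 FPKM in resistant cells and 11.3 FPKM in wild type cells. Gm20708, on that strand too, covers the whole transcript and was at 0.145 FPKM in resistant cells and 0 in wild type cells. Opposite Rrm2b, Gm49085 overlaps 734 bases of exons and was at 0.0802 FPKM in resistant cells and 0.0597 FPKM in wild type cells. Without a stated strand, reads of such pairs cannot be told apart. At 90% identity over 500 bases or more, Rrm2b was the only 1 of the 10 with a copy elsewhere, the pseudogene Gm8616 on chromosome 13, listed at 0 in both libraries.

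The Rrm1 difference did not stand alone on chromosome 7. Upstream of it, Stim1, a calcium sensor of the endoplasmic reticulum, had 296 FPKM in resistant cells and 5.81 FPKM in wild type cells, a ratio of 50.9 (46.9 to 55.4). Rhog, a small GTPase, had 884 FPKM in resistant cells and 19.5 FPKM in wild type cells, a ratio of 45.2 (41.6 to 49.3). These 3 adjacent genes span 231 kb from the 3′ end of Rhog, which lies on the minus strand, to the end of Rrm1. The counting intervals of Stim1 and Rhog overlap each other but lie above that of Rrm1. Together the 3 genes summed to 3681 FPKM in resistant cells and 96.8 FPKM in wild type cells. Whether the 3 genes share a cause was not tested. On the Rhog side, Pgap2 ends 0.556 kb from Rhog and had a ratio of 1.69 (1.5 to 1.9), and Nup98 beyond it 1.04 (0.994 to 1.09). On the other side there was little to measure. Of 37 entries within 300 kb of Rrm1, 22 had 0 in both, and the 20 olfactory receptor entries reached 0.224 FPKM at most. The nearest entry downstream, Olfr543, was at 0.224 FPKM in resistant cells and 0.0644 FPKM in wild type cells. Trim21, 88.2 kb past the end of Rrm1 and below 1 FPKM in both libraries, had a ratio of 0.843 (0.557 to 1.28), and Trim68, 208 kb past it, 1.09 (0.772 to 1.55). The further measured genes on each side by position were Xndc1 (1.38 FPKM in resistant and 3.68 in wild type cells) upstream and Trim6 (1.27 against 0.474), Fam160a2 (19.1 against 6.76), Cavin3 (11.6 against 12.5) and Smpd1 (10.3 against 10.3) downstream. Over these 10 neighbours, which span 3.49 Mb, the median log2 ratio was 0.35, and 0.03 with 10 on each side.

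**Figure D3:**
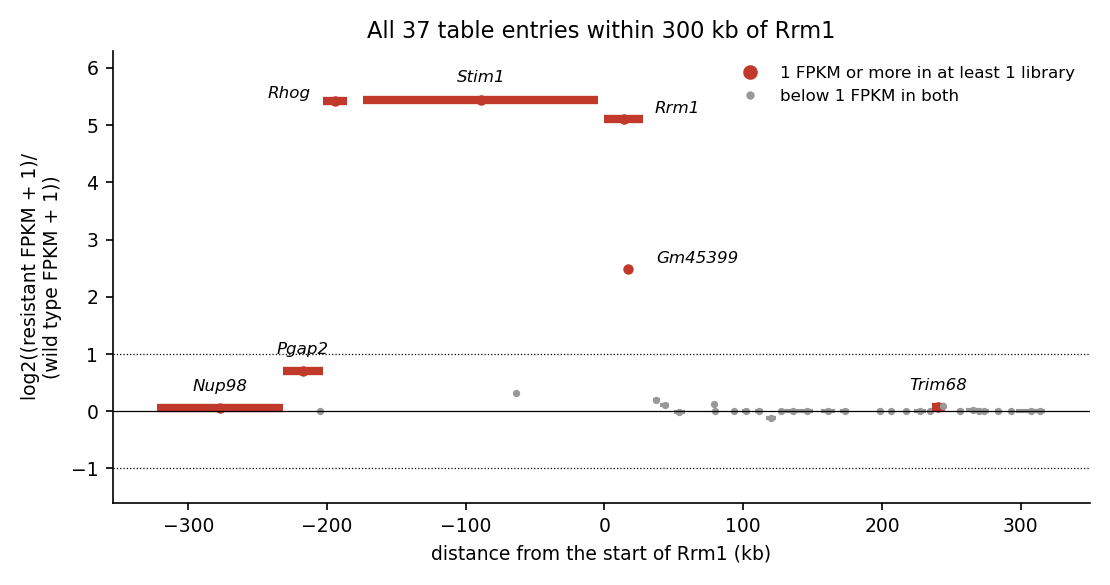
Each of the 37 table entries within 300 kb of Rrm1 is drawn at its distance from the Rrm1 start in kb, as long as the gene, with its log2((resistant FPKM + 1)/(wild type FPKM + 1)) on the vertical axis; red entries reach 1 FPKM in at least 1 library. Rhog, Stim1 and Rrm1 lie above 5, Gm45399 inside Rrm1 at 2.49, and the other entries below the dotted 2-fold line at 1.

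The neighbourhoods of the other 9 genes held smaller differences. The 5 nearest measured protein-coding genes on each side had median log2 ratios between -0.45, around Rrm2, and 0.48, around Dck. Of these 90 neighbours, 6 were at least 2-fold higher, beside 7.90% of all measured genes, and 6 at least 2-fold lower, beside 8.37%. Around Rrm2b, at 1.34 itself, the neighbours' median was 0.08, and around Tk2, at -0.75 itself, it was -0.13. The nearest measured genes were not always close. These windows spanned from 0.731 Mb, around Samhd1, to 9.06 Mb, around Dctd, and that of Tk2 spanned 8.82 Mb. Around Dck, at -0.83 itself, the neighbours' median lay on the other side of 0. Mob1b, the nearest before Dck, was at -0.98, though. Utp3, Rufy3 and Rassf6 were below 0 too, and the other neighbours of Dck were above it. Over 2 libraries, the 3 genes with log2 ratios nearest to that of Rrm1 were Arhgdib (46.5 FPKM in resistant and 0.445 in wild type cells), the pseudogene Gm45660 (36.2 FPKM in resistant cells and 0 in wild type cells) and Ccn1 (177 against 4.64), on chromosomes 6, 8 and 3. Their log2 ratios differed from that of Rrm1 by 0.07 to 0.13, against 0.32 for Rhog and 0.34 for Stim1. This order rests on the pseudocount: Arhgdib had a plain FPKM ratio of 104 and Gm45660 has none, whereas Rhog and Stim1, at 45.2 and 50.9, lay closer than Arhgdib to Rrm1 at 35.

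The other genes listed with the thymidylate branch, not all of which make thymidylate, mostly lay on the lower side with Dctd. Of 10 measured, 8 had a log2 ratio below 0, and the median was -0.46, against 0.02 over all measured genes. In all, 0 were at least 2-fold lower, beside 8.37% of all measured genes, and 2 at least 2-fold higher, beside 7.90%. The 2 were Shmt2 (118 FPKM in resistant and 51.3 in wild type cells), a mitochondrial serine hydroxymethyltransferase, and Upp1, uridine phosphorylase (10.5 against 4.0). The nucleoside mono- and diphosphate kinases, which complete the triphosphates of what the salvage kinases make, had a median of 0.07, or -0.019 after upper quartile rescaling. Of 10 measured, 1 was at least 2-fold lower, beside 8.37% of all measured genes, and 0 were higher, beside 7.90%. The lower gene was Nme3 (4.05 FPKM in resistant and 11 in wild type cells). The 10 genes listed for the thioredoxin and glutaredoxin systems, not all of which feed electrons to ribonucleotide reductase, had a median of 0.13. On the log2(FPKM + 1) scale 0 of the 10 passed 2-fold, beside 7.90% of all measured genes higher and 8.37% lower. The farthest out, Glrx2 at 0.97 and Glrx at -0.93, had plain FPKM ratios of 2.01 and 0.490, just past 2-fold; both passed with a pseudocount of 0.1, and Glrx also after upper quartile rescaling. None of these 3 lists held a difference near that of Rrm1.

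Of 14 measured regulators of the reductase genes and proteins, 4 were at least 2-fold lower in resistant cells, beside 8.37% of all measured genes, and 0 higher, beside 7.90%, with a median of -0.19. The lowest was Ccnf, which in human cells encodes the cyclin that marks RRM2 for degradation, at 5.62 FPKM in resistant cells and 22 FPKM in wild type cells. E2f2 followed at 1.25 FPKM in resistant and 5.23 FPKM in wild type cells, and the repressor E2f8 at 6.53 against 18.5. E2f3, the other one, stood at 2.42 FPKM in resistant and 6.62 FPKM in wild type cells. Rrm2 and Tk1 are known as E2F targets of S phase, and the 23 E2F and S-phase genes, all measured, had a median of -0.21, with 4 at least 2-fold lower and 0 higher, beside the same shares of all measured genes. The lowest were Ccne2 (1.5 FPKM in resistant and 17.4 in wild type cells), Fen1 (10.5 against 43.1), Slbp (9.60 against 30.9) and Uhrf1 (38.8 against 104). Rrm2 at -0.55 and Tk1 at 0.05 both lay inside the range of that list, -2.88 to 0.45. That range also holds the quartiles of all measured genes, -0.46 and 0.44, so lying inside it does not set a gene apart.

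Rrm2b is a known p53 target, and whether p53 set its level here was not tested. Of the 21 measured genes on the list of p53 targets, 19 had a log2 ratio above 0. Their median was 0.43, against 0.02 over all measured genes. On the 2-fold scale 5 were higher in the resistant library, beside 7.90% of all measured genes, and 0 lower, beside 8.37%. Plk2 (60.9 FPKM in resistant and 8.50 in wild type cells), Plk3 (16.7 against 2.16) and the BH3-only gene Pmaip1 (39.7 against 7.17) had the highest ratios, followed by Bbc3 (6.23 against 1.43) and Sesn2 (5.39 against 2.12). Not every target stood so far apart: Cdkn1a stood at 7.85 FPKM in resistant cells and 6.04 FPKM in wild type cells, and Mdm2 at 9.60 against 9.48. Trp53 itself was lower, with a log2 ratio of -0.70. These 3 were named after their values were seen.

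**Figure D4:**
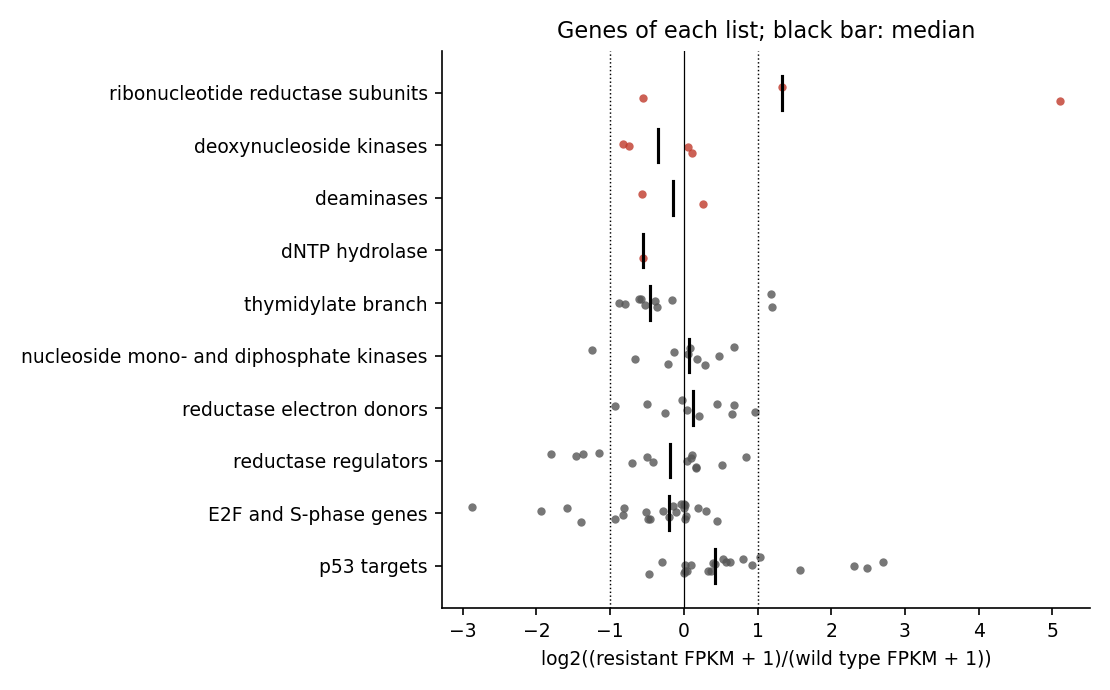
Each point is a measured gene at its log2((resistant FPKM + 1)/(wild type FPKM + 1)), by list, with the 10 genes described here in red, the other lists in grey and medians as black bars. Rrm1 at 5.11 stands apart, and the p53 targets have the highest median of the grey lists, 0.43.

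As a check of the labels, the epithelial keratin genes Krt8, Krt18 and Krt19 stood between 1123 and 1864 FPKM in both libraries, and Epcam, another epithelial marker, was below 1 FPKM in both. Of 32 markers of fibroblasts, leukocytes, endothelium, acinar and islet cells, summed levels were at most 10.4 FPKM for any list in resistant cells and 7.49 FPKM in wild type cells. The leukocyte list summed to 7.27 FPKM in resistant cells and 1.63 FPKM in wild type cells, with Cd68 the most of it, Ptprc at 0.232 FPKM in resistant cells and 0 in wild type cells, and Cd3e at 0 in both. Of the 32, 4 reached 1 FPKM in either library (Cd68, Lyz2, Egfl7 and Cela1), and the part of such cells in the values above was not tested. Depth was similar, as 1 fragment was worth 0.0431 FPKM on 1 kb in the resistant library and 0.0417 FPKM in the wild type library.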

How the data were processed

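Values per gene and library were made by the authors and read as FPKM, since the file headers name no unit. HISAT2, StringTie and GRCm38 are named in the submitters' processing notes; the sources used here give neither their roles and versions nor the strandedness of counting. The deposited table also holds the authors' log2 fold change, a statistic of their test (a score), p-values and q-values, which rest on 1 library per side and are quoted only as theirs.

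Low values of genes with 1 transcript of 1 to 8 kb and a locus of their own, taken over length less 160 bases, came within 0.1 of whole fragments for 99.4% (resistant) and 100% (wild type) of values up to 5.5 fragments. From these steps 1 fragment was worth 0.0431 FPKM (resistant) and 0.0417 FPKM (wild type) on 1 kb, which gave exact 95% intervals (Poisson for levels, conditional binomial for ratios) over the longest coding transcript of the 10 genes and the longest transcript of any kind for the entries around Rrm1; a shorter expressed transcript widens them. They cover counting error only.

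Entries of 1 symbol were summed, and 13 entries marked as failed or too deep were left out. The measure was log2((resistant FPKM + 1)/(wild type FPKM + 1)) for genes that reached 1 FPKM in either library. Genes named besides the 10 were, per list, up to 3 in each direction at least 2-fold apart (else the 2 farthest out), the 5 nearest measured coding genes on each side of Rrm1, and the 3 nearest to its log2 ratio; any other, such as the markers, the entries overlapping a member and the region's other entries, was named for its position or with its values known. The 10 genes and the lists were chosen with earlier results of these data known. Positions are from GENCODE M21 (GRCm38). Ratios were also taken on simulated libraries with known folds. These hold counting error only, so they cannot show how far cultures or library preparations differ. Python 3.11.15, numpy 2.4.6, pandas 2.3.3, scipy 1.17.1, matplotlib 3.10.9 and BLAST 2.17.0+ were used. Other pseudocounts, filters, scalings, fold thresholds, gene types and window sizes were tried.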

Additional observations from a re-analysis of the deposited data

How the results depend on the processing

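With 1 library per condition, leaving out a library was not possible, and no paired analysis was possible because each group has a single sample and no test was made. The count of the 10 genes at least 2-fold higher was 1 in place of 2 at a pseudocount of 5 and at a fold threshold of 4, Rrm2b being the gene lost; 0 were lower under the settings tried, all with a pseudocount; Tk2 came nearest, at -0.98 with a pseudocount of 0.1, and its plain FPKM ratio was 0.495. Over all genes, 428 were higher and 297 lower at a pseudocount of 5, 220 and 128 at a fold threshold of 4, and 1553 lower at a pseudocount of 0.1, against 963 and 1021. The 6 other pathway lists held 10, 10, 10, 14, 23 and 21 measured genes. Pooled, 7 of these reached 2-fold upward and 9 downward, beside 7.90% and 8.37% of all measured genes. At a pseudocount of 5 the pooled counts were 4 upward and 6 downward. With a fold threshold of 4 they were 3 and 1. Of the 10 genes, 9 kept the sign of their log2 ratio under the settings tried; Tk1 did not, at -0.04 after upper quartile rescaling, where the median of the nucleoside mono- and diphosphate kinases was -0.019, against 0.07. The log2 ratio of Rrm1 ranged from 5.02 to 5.13, that of Rrm2b from 0.81 to 1.58, that of Dck from -0.91 to -0.63 and that of Tk2 from -0.98 to -0.37. Taking 10 neighbours on each side of Rrm1 in place of 5 gave a median of 0.03, against 0.35. Depth limits Tk2, Cda and Dguok most.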

Other observations

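Among the 5 measured coding genes on each side of the other 9, named by position and after their values were seen, a high log2 ratio lay beside Dguok: Mthfd2, a mitochondrial folate enzyme, stood at 165 FPKM in resistant cells and 44.9 FPKM in wild type cells, while Dguok itself was at 11.7 against 10.7 FPKM. Beside Samhd1, Soga1 stood at 0.00559 FPKM in resistant cells and 3.06 FPKM in wild type cells, and Rbl1, an RB family gene, at 8.41 against 13.5 FPKM. On the 2 sides of Rrm2, Cys1 (2.34 FPKM in resistant against 7.55 in wild type cells) and Id2 (55.8 against 144) were lower, and Taf1b (10.9 against 4.61) was higher, so the genes around Rrm2 did not share 1 direction. Beside Tk1, Birc5 stood at 146 FPKM in resistant cells and 155 FPKM in wild type cells.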
